A study of Mus musculus with 2 samples.

Results

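The genes described here take part in signaling by leukemia inhibitory factor (LIF). They are the receptor chains Lifr and Il6st, the Janus kinases Jak1, Jak2 and Tyk2, the transcription factor Stat3, the feedback inhibitors Socs3 and Socs2, and the kinase gene Pim1. Their transcripts were selected by gene symbol among the protein-coding transcripts of GENCODE M21. The deposited table held 30 of the 41 protein-coding transcripts annotated for the 9 genes, out of 49490 protein-coding transcripts in all. A main set of 31386 transcripts from 12652 genes had a mean exon value above 1 and all 4 values (exon and intron in both libraries) above 0, and it held 27 of the 30 transcripts and 8 of the 9 genes.

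The cells were wild-type embryonic stem cells of the mouse line DTCM23/49 XY, depleted of feeder cells and kept on gelatin in medium with serum and recombinant mouse LIF. The cells received 4-thiouridine (4sU), a uridine analogue that is built into RNA during transcription, at 200 µM for 10 min. RNA carrying 4sU (labeled, newly made) was pulled out, and the remaining RNA (unlabeled, preexisting) was sequenced beside it, in 1 library each, both of replicate 1. Both libraries share the genotype, the line, the 4sU and the LIF, and no culture without LIF was analysed here. With 1 library per pool there was no replicate error, no difference was tested, and the read depth is unknown, so every value describes these 2 libraries. The second library is described as preexisting RNA in one label and named as total in another, and is treated here as unlabeled RNA. Each value is a relative abundance per length, called TPM by the authors, on a scale whose library total is 10 times that of TPM.

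The labelled cell type was checked against marker genes. Each of 12 embryonic stem cell markers had a mean exon value above 10, with leading transcripts that summed to 7958 in labeled and 11648 in unlabeled RNA, with Dppa5a highest in labeled (3263 and 1235) and Tdgf1 in unlabeled RNA (2067 and 3453). Of 11 fibroblast and feeder markers, 6 had both exon values under 1. The leading transcripts of this list summed to 328.1 in labeled and 869.3 in unlabeled RNA, most of it from the fibronectin gene Fn1 (308.7 and 811.3). Also present were Acta2 (10.9 and 38.6), Thy1 (6.03 and 14.5), Col1a1 (0.91 and 1.78) and Dcn (0.81 and 2.72), and the part of such cells in the results was not tested. The collagen gene Col3a1 and the stromal genes Lum, Postn and Pdgfrb were listed at 0 in the exons of both libraries. Of 13 markers of differentiated cells, 7 had both exon values under 1, and Gata6, Sox17, Foxa2 and Elf5 were listed at 0 in the exons of both libraries. The summed exon values of this list were 22.3 and 35.1, with Nes highest (8.64 and 15.2), followed by Pax6 (8.40 and 10.1). Mixl1 (0.80 and 3.42), Gata4 (1.22 and 2.49), Eomes (1.88 and 1.14) and Sox1 (0.76 and 1.56) were also present.

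LIF binds LIFR, which pairs with the shared signal-transducing chain gp130, the product of Il6st. Kinases of the JAK family bound to these chains phosphorylate them and then STAT3, which moves to the nucleus as a dimer and binds DNA. In mouse embryonic stem cells STAT3 activity helps to maintain self-renewal, and genes that STAT factors switch on, among them the SOCS genes, encode proteins that dampen the signal again.

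All 9 genes were found in both libraries, and in each of them the exon value of the leading transcript, the one with the highest mean exon value, was lower in labeled than in unlabeled RNA. This holds for most transcripts, because the median transcript of the main set had a labeled exon value 0.759 times the unlabeled one (log2 of -0.40, with 0.1 added to both values). Differences are therefore also given after subtraction of this median, as the centred log2. Socs2, Socs3, Tyk2 and Pim1 lay near the median transcript, with 0.649 to 0.776 times as much in labeled as in unlabeled RNA. The receptors, Jak1, Jak2 and Stat3 lay under it, at 0.347 to 0.480 times. Of the 27 transcripts, 25 had a centred log2 under 0, which is the median of the main set by definition. The median of the 27 was -0.74. They are not separate units, since 8 are isoforms of Il6st and 7 of Socs2. Among leading transcripts in the main set 7 of 8 were under 0. Above a mean exon value of 10, 19 of 24 transcripts were under the median of that set.

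At the 2-fold threshold 1 member transcript was higher in labeled RNA than the median transcript, where 20.4% of the main set was, and 5 were lower, where 13.6% of the main set was. Without centring, the counts were 1 higher (13.6% of the main set) and 16 lower (26.6%), so the number of lower calls depends on the reference. The higher transcript is an Il6st isoform described below. The lower ones are the leading transcripts of Jak1 and Stat3 and 3 short Socs2 transcripts. Summed over the coding transcripts of the gene, Jak1 stayed past 2-fold lower (centred log2 of -1.05) and Stat3 did not (-0.88). Among leading transcripts alone, 0 of 8 members were higher and 2 were lower, beside 22.2% and 12.8% of the leading transcripts of the main set, and without centring 0 were higher (15.2%) and 5 lower (25.3%).

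**Figure D1:**
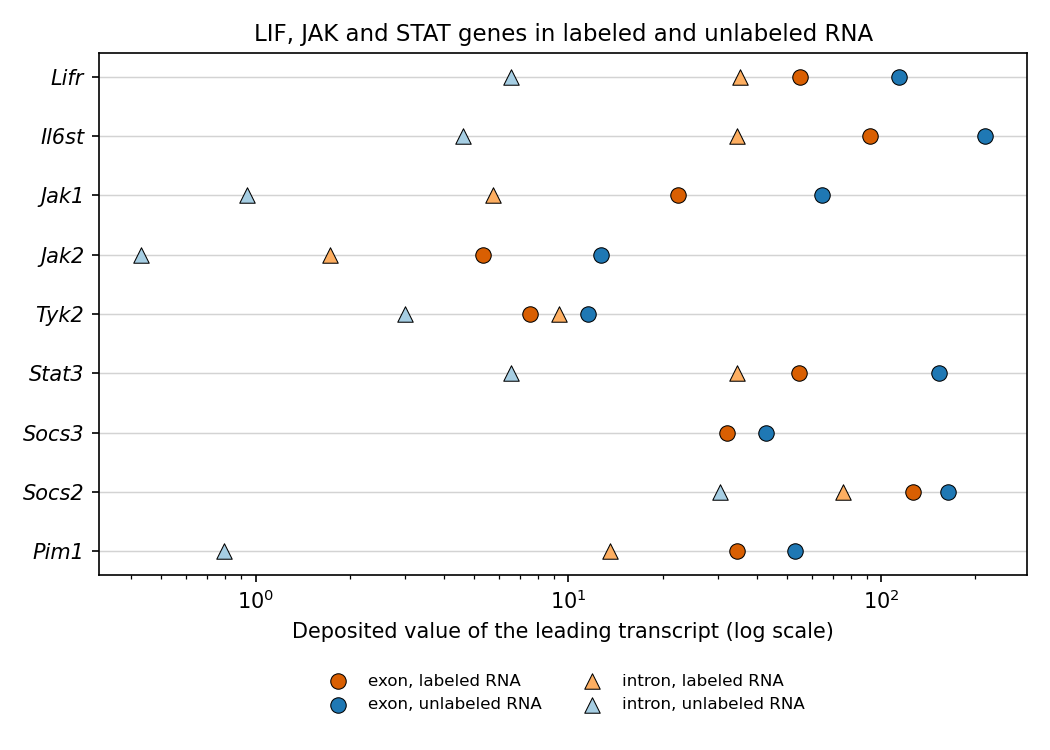
Deposited exon values (circles) and intron values (triangles) of the leading transcript of each of the 9 genes in labeled RNA (orange tones) and unlabeled RNA (blue tones), on a log axis, 1 library per pool. Exon values are lower and intron values higher in labeled RNA in every gene drawn, and the introns of Socs3, listed at 0, are not drawn.

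Ranked by the leading transcript, unlabeled exon values fell from Il6st at 215.0 through Socs2, Stat3, Lifr, Jak1, Pim1 and Socs3 to Jak2 at 12.7 and Tyk2 at 11.5. In labeled RNA the order was Socs2 at 126.5, Il6st, Lifr, Stat3, Pim1, Socs3, Jak1, Tyk2 and Jak2 at 5.32. Lifr and Stat3 were almost level in labeled RNA (54.8 and 54.7), as were Pim1 and Socs3 (34.5 and 32.1), and with no replicate such neighbours cannot be placed in an order. Of the 9 genes, 7 had a mean exon value above the median of all leading transcripts (26.8), and Jak2 and Tyk2 did not. Sums over the transcripts of a gene were not used for this ranking, because the 2 highest isoforms of a gene often carried similar values: in 7244 genes with several transcripts in the main set, the second highest unlabeled exon value was a median of 0.822 times the highest, and the second highest labeled intron value 0.900 times. A sum can thus grow with the number of isoforms annotated, and Il6st, with 9 transcripts, summed to 495.9 in labeled and 1002 in unlabeled RNA. The sums were 487.2 and 711.7 for Socs2, 154.0 and 372.6 for Stat3, 150.7 and 309.3 for Lifr, 23.5 and 64.5 for Jak1 and 10.8 and 24.8 for Jak2, and in the other genes the single transcript is the sum. By these sums Il6st and Socs2 were almost level in labeled RNA and cannot be placed in an order. With every biotype summed, Socs2 was higher in labeled RNA (762.3, beside 575.5 for Il6st). By the coding sums Socs2 stays second in unlabeled RNA, and Jak2 lies above Tyk2 in both libraries.

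Lifr, which encodes the receptor chain that LIF binds together with gp130, lies on the plus strand of chromosome 15 (ENSMUSG00000054263, GRCm38). Of its 6 annotated protein-coding transcripts 3 were in the table. The leading one, ENSMUST00000067190 (chr15:7129559-7191743, 20 exons), had an exon value of 54.8 in labeled and 114.2 in unlabeled RNA, 0.480 times and a centred log2 of -0.66. Its intron value was 35.4 in labeled and 6.55 in unlabeled RNA, 5.40 times higher in the newly made pool. The other isoforms followed the same pattern with exon values of 58.0 and 108.1 for ENSMUST00000171588 and 37.9 and 87.0 for ENSMUST00000164529. Summed over the isoforms, intron signal stood at 0.681 of the exon signal in labeled RNA and at 0.0579 in unlabeled RNA.

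Il6st encodes gp130, the chain that LIF shares with interleukin 6, oncostatin M and related cytokines. It lies on the plus strand of chromosome 13 (ENSMUSG00000021756) and all 9 annotated protein-coding transcripts were in the table. The leading one, ENSMUST00000184445 (chr13:112472599-112501141, 13 exons), had exon values of 91.7 in labeled and 215.0 in unlabeled RNA (centred log2 of -0.83) and intron values of 34.6 and 4.60. It had the highest unlabeled exon value of any member transcript. The intron to exon ratio of the gene, summed over its isoforms, was 0.750 in labeled and 0.0613 in unlabeled RNA. That of the leading transcript was 0.377 and 0.0214.

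One isoform of Il6st went the other way. ENSMUST00000183886 (chr13:112464112-112483616, 6 exons) had an exon value of 66.4 in labeled and 22.6 in unlabeled RNA, 2.94 times higher and a centred log2 of 1.95, and it is the only member transcript of the main set past 2-fold on that side with or without centring. Its annotation differs from the rest: of its 3004 exon bases, 2272 (75.6%) fall within introns of ENSMUST00000183663, the transcript of the gene with the most exon bases. Its last exon shares 121 bases (chr13:112481424-112481544) with exon 5 of that transcript and then continues for 2072 bases into the intron, to chr13:112483616. The exon value of this isoform therefore counts mostly sequence that is intronic in the spliced receptor mRNA, and how far its labeled value comes from unspliced RNA of the other isoforms was not tested. The bases around the point where both annotations part are given next, 5′ to 3′ on the plus strand, since they show the sequence that is spliced in one isoform and read through in the other. Capitals mark the shared exon.
ENSMUST00000183663: TTTGAAATCAGAGTGggcaacagagaagtt
ENSMUST00000183886: TTTGAAATCAGAGTGgtaagttactgcaga
In the first line the exon is joined to the next exon, which starts at chr13:112487709. In the second line it runs on into the intron, whose first bases are gtaagt, the usual start of an intron.

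**Figure D2:**
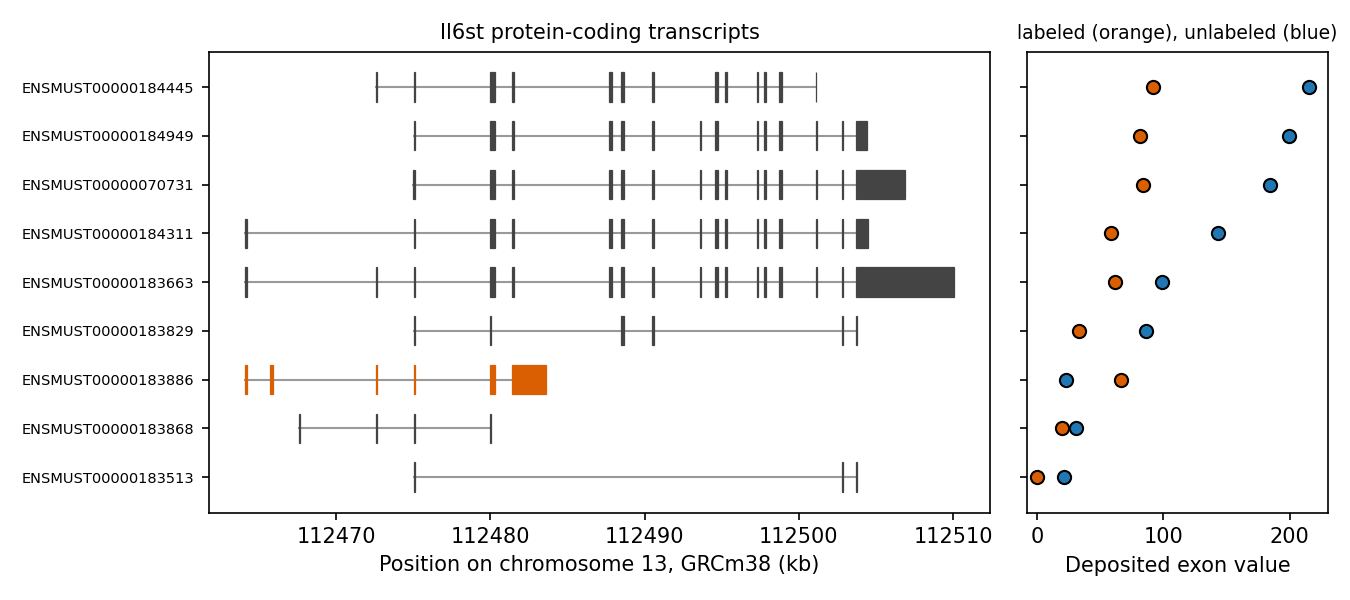
Exons (boxes) and introns (lines) of the 9 Il6st protein-coding transcripts along chromosome 13 in kb (left) and their deposited exon values in labeled (orange) and unlabeled RNA (blue) in 1 library each (right), ordered by mean exon value. ENSMUST00000183886, drawn in orange, is the only transcript whose labeled value (66.4) lies above its unlabeled value (22.6).

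A further Il6st transcript, ENSMUST00000183513, with 201 exon bases, was listed at 0 in the exons of labeled RNA and at 21.6 in unlabeled RNA and thus fell outside the main set. The remaining 6 Il6st transcripts had labeled exon values between 0.385 and 0.627 times the unlabeled ones.

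Of the Janus kinases, Jak1 was the most abundant, and Jak2 and Tyk2 had the lowest exon values of all members. Jak1, which associates with gp130 and is needed for signaling through it, lies on the minus strand of chromosome 4 (ENSMUSG00000028530). Its full-length transcript ENSMUST00000102781 (chr4:101152367-101265282, 25 exons) had exon values of 22.4 in labeled and 64.5 in unlabeled RNA. At 0.347 times and a centred log2 of -1.13, it was the lowest of the leading transcripts and past 2-fold. Its intron values were 5.74 and 0.94. Within Jak1 and on the same strand lies the pseudogene Gm12785 (172 bases), with 22.9 and 58.1, and on the other strand Raver2 overlaps 4 bases (11.9 and 19.9) and the small RNA gene Gm24468 was listed at 0. The only other coding transcript, ENSMUST00000149297 with 421 exon bases, had 1.15 in labeled RNA and was listed at 0 in unlabeled RNA.

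Jak2, a kinase used by many cytokine receptors, lies on the plus strand of chromosome 19 (chr19:29251828-29313080, ENSMUSG00000024789), and 2 of its 4 annotated coding transcripts were in the table. The leading one, ENSMUST00000025705 with 24 exons, had exon values of 5.32 and 12.7 and intron values of 1.73 and 0.43 in labeled and unlabeled RNA (centred log2 of -0.84). The second isoform had 5.43 and 12.1. Tyk2, which serves interferon and interleukin receptors and can also bind gp130, lies on the minus strand of chromosome 9 (ENSMUSG00000032175). Its single transcript in the table, ENSMUST00000001036 (chr9:21104069-21127346, 23 exons), had exon values of 7.54 and 11.5, a centred log2 of -0.21. Tyk2 was the only member whose leading transcript had more intron than exon signal in labeled RNA, with intron values of 9.36 in labeled and 3.01 in unlabeled RNA and ratios of 1.24 and 0.261. An antisense gene, 1700084C06Rik, overlaps 24326 bases of Tyk2 and had exon values of 15.6 and 6.52 and intron values of 9.03 and 3.27. Whether the counting used strand is not given in the sources used here, so reads of both genes cannot be told apart.

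Stat3, the transcription factor that LIF activates, lies on the minus strand of chromosome 11 (ENSMUSG00000004040), and all 4 annotated protein-coding transcripts were in the table, each with 24 exons. The leading one, ENSMUST00000127638 (chr11:100886810-100939540), had exon values of 54.7 in labeled and 153.0 in unlabeled RNA, 0.357 times and a centred log2 of -1.08. Its introns stood at 34.6 in labeled and 6.56 in unlabeled RNA, 5.27 times higher in the newly made pool. Stat3 and Lifr thus had near-equal exon and intron values in labeled RNA, while the unlabeled exon value of Stat3 was the higher of the pair. Across the 4 isoforms, unlabeled exon values ran from 57.2 to 153.0 and labeled ones from 28.7 to 54.7, and every isoform had a centred log2 between -0.59 and -1.08. The intron to exon ratio of the gene, summed over its isoforms, was 0.831 in labeled and 0.0663 in unlabeled RNA. That of the leading transcript was 0.632 and 0.0429. Stat5a overlaps Stat3 by 72 bases on the other strand and had 2.43 and 2.65.

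Socs3, whose product binds gp130 and the JAK kinases and blocks them, lies on the minus strand of chromosome 11 (chr11:117966079-117969186, ENSMUSG00000053113). It has 2 exons and 1 intron of 556 bases. Its exon value was 32.1 in labeled and 42.8 in unlabeled RNA, 0.750 times, and with a centred log2 of -0.02 it matched the median transcript. The intron was listed at 0 in both libraries, so Socs3 has no intron to exon ratio, no rate and no place in the main set. Of 79 genes whose leading transcript had 2 exons, an intron of 400 to 700 bases and a mean exon value above 10, 8 had an intron value of 0 in both libraries, 10 in labeled RNA and 33 in unlabeled RNA. Where the intron was longer the counts were 8, 10 and 46 of 603.

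Socs2, best known as an inhibitor of growth hormone signaling, lies on the minus strand of chromosome 10 (ENSMUSG00000020027), and all 7 annotated protein-coding transcripts were in the table. The leading one, ENSMUST00000172070 (chr10:95411490-95415484, 3 exons), had the highest labeled exon value of the members, 126.5, beside 163.1 in unlabeled RNA. Relative to the median transcript its log2 was 0.03, while the labeled value itself was the lower of the pair (log2 of -0.37 without centring), and the sum over the isoforms had a centred log2 of -0.15. Socs2 introns were high in both pools, at 75.2 in labeled and 30.5 in unlabeled RNA, and the unlabeled value was the highest among the leading transcripts. The difference between the pools, 2.46 times, was the smallest of the 8 genes with intron signal.

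The 7 Socs2 transcripts fell into 2 sets. The 4 with 948 exon bases or more had exon values of 90.1 to 126.5 in labeled RNA and a centred log2 between -0.05 and 0.03. The 3 fragments of 497 to 623 exon bases, whose annotation is incomplete at the 3′ end, had only 4.51 to 17.1 in labeled and 21.9 to 49.6 in unlabeled RNA, and all were past 2-fold lower. Their intron values in labeled RNA (35.8 to 77.8) were close to those of the longer isoforms (44.9 to 81.4), so their labeled ratios reached 2.09, 10.9 and 12.8, the last being the highest of any member.

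Pim1, a serine/threonine kinase gene that STAT factors switch on, lies on the plus strand of chromosome 17 (chr17:29490753-29496112, ENSMUSG00000024014). Of its 4 annotated protein-coding transcripts only ENSMUST00000024811, with 6 exons, was in the table. It had exon values of 34.5 in labeled and 53.2 in unlabeled RNA, 0.649 times and a centred log2 of -0.22. Intron signal was 13.6 in labeled RNA against 0.79 in unlabeled RNA, 17.2 times higher, the widest gap of the leading transcripts. The intron to exon ratio was accordingly 26.5 times higher in labeled than in unlabeled RNA (0.394 and 0.0149). Ratios summed over isoforms differed 3.82 to 14.1 times in the other members with intron signal. By leading transcripts this range was wider, with 0.377 and 0.0214 in Il6st, 0.256 and 0.0146 in Jak1 and 0.594 and 0.187 in Socs2. Pim1 still differed most. Gm26885, an antisense gene, overlaps 1173 bases of Pim1 and had an exon value of 30.6 in labeled and 6.26 in unlabeled RNA, and reads of the overlap cannot be told apart.

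The intron to exon ratio in each pool is the observable from which the study derives rates, since it needs no scaling between libraries. It was higher in labeled than in unlabeled RNA for all 27 transcripts, as for 92.2% of the main set. The median ratio of the 27 transcripts was 0.662 in labeled and 0.0783 in unlabeled RNA, and that of the main set 0.570 and 0.111. For leading transcripts alone the medians were 0.494 and 0.0384, beside 0.473 and 0.0931 over all leading transcripts. In unlabeled RNA, 2 of 8 leading transcripts (Tyk2 and Socs2) exceeded that median.

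In the model of the study, premature RNA is made, processed to mature RNA and degraded at constant rates, and a transcript is compatible with it only at a labeled ratio under 1 that exceeds the unlabeled ratio. The labeled ratio was 1 or more in 9 of the 27 transcripts, beside 28.2% of the main set, and among leading transcripts in 1 of 8 (Tyk2), beside 22.7%. With a labeled ratio under 1, none lay below the diagonal of equal ratios (0 of 27, where 5.1% of the main set did), so the same 9 transcripts, or 33.3%, were incompatible with the model, equal to the 33.3% of the main set. Above the green line b = 1/(2 - a), where a is the unlabeled and b the labeled ratio and the rates are unique, lay 9 transcripts (22.5% of the main set), and 9 lay between that line and the diagonal (44.2% of the main set).

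**Figure D3:**
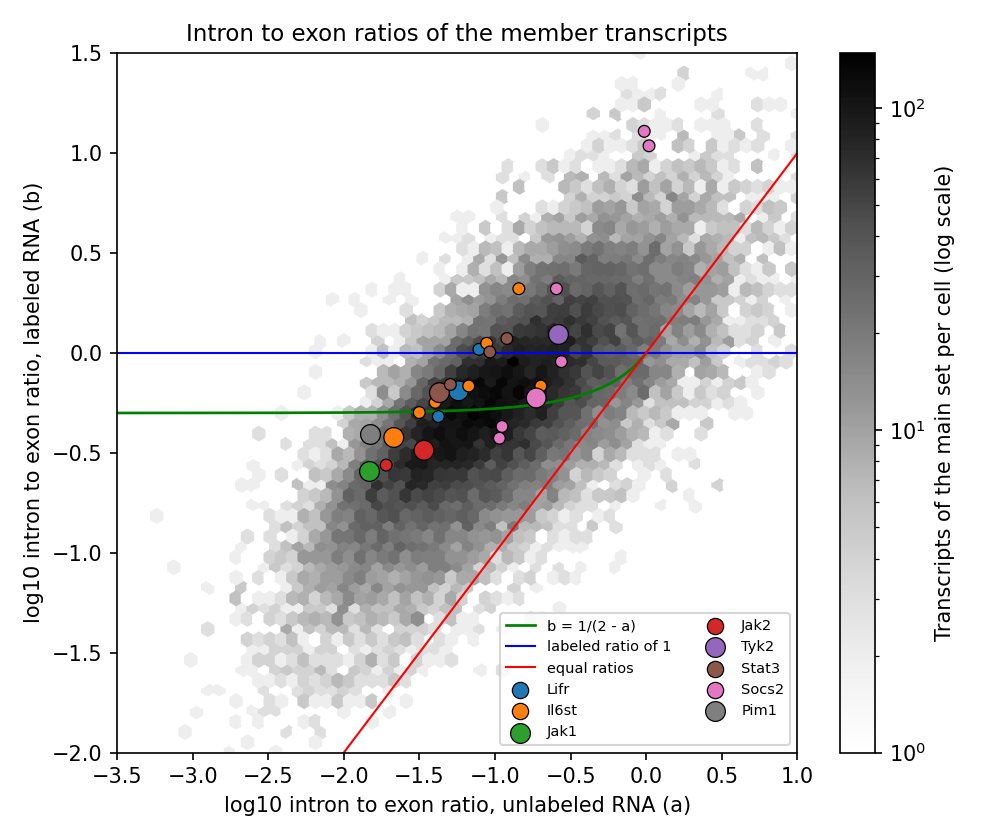
Intron to exon ratios (log10) of the 27 member transcripts in unlabeled (a, horizontal) and labeled RNA (b, vertical), 1 library each, over the density of the 31386 transcripts of the main set in grey, with large points for leading transcripts. All members lie above the red line of equal ratios, and 9 lie above the blue line at a labeled ratio of 1, among them the Socs2 fragment at 12.8.

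Where the model could be solved, degradation half-lives of the leading transcripts were 44.5 min for Lifr and 55.1 min for Stat3, with processing half-lives of 6.94 and 6.66 min, each from a single solution. Over the 20920 compatible transcripts of the main set the median was 19.0 min for degradation (quartiles 10.1 and 41.1) and 3.88 min for processing (quartiles 2.81 and 6.58). Socs2 also had a single solution, at 6.25 min for degradation and 4.37 min for processing. Il6st and Pim1 had a pair of solutions each, and the one nearest the typical rates gave degradation half-lives of 7.50 and 17.4 min, while the other gave 2.41 and 1.42 min. Jak1 (12.9 min) and Jak2 (9.51 min) had no exact solution, like 57.2% of the compatible transcripts, and are given at the closest approach of the equation, and a fit over both variables gave 4.76 and 3.64 min at a smaller distance.

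These half-lives depended strongly on the isoform and on how the libraries were read. Among compatible isoforms the degradation half-life ran from 14.3 to 44.5 min in Lifr, from 7.50 to 70.0 min in Il6st, from 55.1 to 74.5 min in Stat3 and from 6.25 to 70.0 min in Socs2. Read as total RNA instead of unlabeled RNA, the second library gave 117.6 min for Lifr, 152.5 min for Stat3, 129.0 min for Il6st, 199.7 min for Pim1, 120.6 min for Jak1, 65.7 min for Jak2 and 24.0 min for Socs2. Possible leakage of unlabeled RNA into the labeled pool was set at 0.142 of each unlabeled value. This is percentile 1 of labeled over unlabeled exon values in the main set, and it counts all labeled exon signal of a transcript at that percentile as leakage. Its subtraction gave 382.8 min for Lifr, 61.5 min for Il6st, 56.4 min for Pim1 and 26.2 min for Jak1. It gave 17.5 min for Jak2 and 14.7 min for Socs2, and left Stat3 incompatible. Gene sums gave 58.2 min for Lifr, 93.9 min for Il6st, 34.3 min for Jak1, 10.9 min for Jak2, 172.2 min for Stat3 and 61.4 min for Socs2. The order of the genes by half-life is thus not settled by these libraries.

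Sequence was examined for features that the selection had not used. STAT dimers bind the palindrome TTCNNNGAA, which reads alike on both strands. RefSeq promoters (GRCm38.p6) were matched by symbol for 8 of the 9 genes (all but Socs2) with 10 starts, and the 250 bases before each start were scanned. The palindrome was in 1 of the 10, that of Socs3, and in 7.02% of 32851 promoters of the same length. The match (TTCTTAGAA) begins 154 bases before the RefSeq start, which lies 180 bases upstream of the start of the Socs3 transcript described here, and 334 bases before the start of that transcript. The Socs3 promoter is printed because this gene is the textbook feedback target of STAT3, on the minus strand at chr11:117969367-117969616, with the palindrome in capitals.
Socs3: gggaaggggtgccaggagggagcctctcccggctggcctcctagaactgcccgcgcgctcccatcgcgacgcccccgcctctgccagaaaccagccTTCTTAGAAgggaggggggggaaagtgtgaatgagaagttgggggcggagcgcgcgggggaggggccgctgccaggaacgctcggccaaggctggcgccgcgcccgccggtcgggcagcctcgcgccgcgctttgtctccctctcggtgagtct
No binding was measured in these libraries, and the match is a description of the letters only.

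In 3′ untranslated regions, the heptamer TATTTAT is part of AU-rich elements, which are known to recruit RNA decay factors. It was counted on the transcript strand in the longest 3′ region among the coding transcripts of each gene in the table. Pim1 held 4 copies, some of which overlap, Socs3 held 2, and Socs2 and Jak2 held 1 each. Lifr, Il6st, Jak1, Tyk2 and Stat3 held 0, although 72.0%, 68.5% and 56.1% of the genes with a 3′ region of like length (within 10%) as Lifr, Il6st and Stat3 held at least 1. For Jak1 and Tyk2, whose 3′ regions are shorter, the shares were 28.5% and 22.2%. For Pim1, Socs3, Socs2 and Jak2 these shares were 31.7%, 32.3%, 30.6% and 31.1%. The longer form TTATTTATT, which contains the heptamer, occurred only in Pim1, with 3 copies (7.23% of like-length regions held it). Of the 4 members near the median transcript in labeled over unlabeled exon value, Socs2, Socs3 and Pim1 thus held the heptamer and Tyk2 did not. Of the 5 under the median transcript only Jak2 did. A relation between the motif and the values was not tested. The first match in each gene is shown with the heptamers in capitals, so that the overlapping copies of Pim1 and Socs3 can be compared with the single ones of Socs2 and Jak2.
Pim1: agttttaatgTATTTATTTATTTATtt
Socs3: tttgcacataTATTTATATTTATactc
Socs2: accatgcttgTATTTATccctcgtctt
Jak2: ttttgtgtgtTATTTATacaagatttt

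Other genes of the pathway were read from fixed lists by their leading transcripts. In the main set, 22.2% of all leading transcripts were 2-fold higher and 12.8% lower than the median transcript, and the counts of each list stand beside these shares. The main set also asks for intron values above 0, so each list was read again with a mean exon value above 1 as the only condition, an alternative added after the values were seen, under which 3506 of 14008 leading transcripts were higher and 1786 (12.7%) lower. A further alternative of that kind kept the main set but asked for each exon value, and not their mean, to lie above 1, under which 19.4% of 11840 were higher and 12.1% lower. Without centring, 15.2% of the leading transcripts of the main set were higher and 25.3% lower, and these are the shares beside the uncentred counts of every list. Of 21 other cytokine and receptor genes 13 were in the main set, 3 of them higher and 4 lower, with a median centred log2 of 0.36 that becomes -0.03 without centring, where 3 are higher and 5 lower. Under the exon condition alone it was 4 higher and 4 lower of 14. The highest in the main set were the interleukin 11 receptor Il11ra1 (1.71 in labeled and 0.64 in unlabeled RNA, centred log2 of 1.69), the cytokine gene Ctf1 (4.22 and 1.83, 1.56) and Csf3r (2.09 and 0.90, 1.53), all with low values. Il11ra1 and Csf3r passed the minimum only through their labeled values, and with each exon value above 1 it was 1 higher and 4 lower of 11, with a median of 0.28. Cntf, named after its values were seen and outside the main set for an unlabeled intron value of 0, was higher still (28.7 and 8.56, 2.13). Among the lowest were the ciliary neurotrophic factor receptor Cntfr (1.23 and 10.8, centred log2 of -2.64) and the interferon receptor Ifnar1 (18.4 and 73.2, -1.59). Ghr and Prlr, the receptors of growth hormone and prolactin, were also past 2-fold lower (3.25 and 12.9, and 3.67 and 9.85). The cells were given LIF, and their own Lif transcript, named after its values were seen, stood at 5.38 and 5.01.

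All 7 other JAK and STAT genes were in the main set and 0 of them passed 2-fold in either direction, beside 22.2% higher and 12.8% lower over all leading transcripts. Their median centred log2 was 0.28, which becomes -0.12 without centring, where 1 is lower. Jak3 had the highest centred log2 (3.65 in labeled and 2.39 in unlabeled RNA, 0.99). At the other end were Stat5b (1.20 and 2.79, -0.75) and Stat4 (14.8 and 23.2, -0.25). Stat3 had a higher exon value than each of them in both libraries.

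Of 16 other inhibitors 14 were in the main set, with 0 higher (22.2% of all leading transcripts), 1 lower (12.8%) and a median centred log2 of -0.42, and without centring 5 were lower (25.3%). The lower one was Cish, a SOCS family gene, with 0.28 in labeled and 4.50 in unlabeled RNA (centred log2 of -3.20), which passed the minimum only through its unlabeled value, so that 0 of 13 were lower with each exon value above 1. It was followed by Socs6 (21.2 and 53.6, -0.94). At the upper end stood the adaptor gene Sh2b3 (10.4 and 8.69, 0.66) and the phosphatase gene Ptpn1 (17.8 and 15.6, 0.58). Of 13 adaptors and coactivators 12 were in the main set, with 0 higher, 2 lower and a median of -0.35, beside the same shares, and 4 were lower without centring. The lower ones were the coactivator gene Crebbp (62.9 and 211.8, -1.35) and the docking protein gene Gab1 (273.2 and 907.8, -1.33), and the highest were Stam (47.0 and 43.4, 0.52) and Irs2 (4.10 and 4.56, 0.25).

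Of 18 textbook STAT3 targets 11 were in the main set, with 0 higher and 4 lower, beside 22.2% and 12.8% of all leading transcripts, and 7 lower without centring, beside 25.3%. The median centred log2 was -0.85, beside -0.75 for the 8 members and 0.06 for all leading transcripts. Median mean exon values were 154.3 for these targets, 64.2 for the members and 26.8 for all leading transcripts. They were 5.2 for cytokines and receptors and 11.2 for the other JAK and STAT genes. Marker lists were also under 0: -0.72 (9 stem cell genes), -1.11 (4 fibroblast and feeder genes) and -0.49 (4 differentiated cell genes). Their median mean exon values were 579.4, 17.5 and 5.68. A relation to the exon value was not tested. Under the exon condition alone, 17 targets had 1 higher, 4 lower and a median of -0.59, beside -0.66 for the 9 members and 0.12 for all 14008 leading transcripts, so the order of targets and members turned. The higher one, Fos, passed only through its labeled value. The lower ones were the transcription factor genes Myc (33.0 in labeled and 126.8 in unlabeled RNA, -1.54), Sall4 (180.1 and 629.3, -1.41), Tfcp2l1 (62.8 and 206.5, -1.32) and Klf4 (65.9 and 174.5, 0.378 times). The highest in the main set were the kinase gene Sgk1 (213.0 and 365.5, -0.38) and Bcl3 (9.14 and 15.96, -0.40). The exon condition alone adds 6 targets with a missing or 0 intron value, named here after their values were seen: Fos (2.34 and 0.57, 2.26), Junb (2.23 and 1.96, 0.58), Gbx2 (5.40 and 4.81, 0.56) and Pim3 (28.6 and 29.8, 0.34) were above the median transcript, Ier3 (11.1 and 16.2, -0.14) was close to it, and Zfp36 (27.5 and 57.3, -0.66) lay under it.

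Finally, the genes most alike in their 4 values were sought among 12652 leading transcripts, as the Euclidean distance of log2 values over the 2 libraries. Nearest to Lifr were Armc1 (distance 0.146), Hltf (0.223) and Kif18b (0.249), and nearest to Stat3 were Usp37 (0.207), Yap1 (0.215) and Trim2 (0.243). Armc1 had exon values of 55.7 and 113.7 and intron values of 34.4 and 7.21 in labeled and unlabeled RNA, and Usp37 had exon values of 59.4 and 167.2. Socs3 could not be placed, since its intron values are 0.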

How the data were processed

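Labeled and unlabeled RNA were each measured in 1 library. The authors removed reads that map to ribosomal RNA, aligned the rest to exonic and intronic sequence (Ensembl, mm10/GRCm38) with STAR 2.5.0, as the submitters' processing notes give it, and quantified them with RSEM. The deposited score is a relative abundance called TPM, but the total of each column is 10 times that of TPM, and its values were used as deposited. The table gives no counts, so depth is unknown and no interval could be given.

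Biotypes, symbols and positions came from GENCODE M21. The log2 of labeled over unlabeled exon value used a pseudocount of 0.1 and was centred on the median of the main set, and called means past 2-fold. Rates were solved on 4000 grid points with the study's equations. Of several isoforms the leading one has the highest mean exon value. The gene sum was planned as the level of a gene, and is given once for each gene. Named were all members, the 2 highest and 2 lowest genes of each list, every list gene past 2-fold, and the 3 nearest genes, with 1 gene that the rule names not reported here. The members and lists were chosen with earlier results of these data known. Sequence motifs and the comparison of short introns were added after values had been seen. Alternatives were other minimums, pseudocounts, centring, transcript choices and readings of the rates. The work was done with numpy 2.4.6, scipy 1.17.1, pandas 2.3.3 and matplotlib 3.10.9 under Python 3.11.15.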

Additional observations from a re-analysis of the deposited data

How the results depend on the processing

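No paired analysis was possible because each pool has 1 library, and no replicate could be left out. Without read counts there is no spread to judge a change by, so changed counts and medians of the members are printed, and changes of single genes are given as counts. Relative to the median transcript, the median centred log2 of the member transcripts (-0.74) was -0.79 without a minimum exon value, -0.59 above a mean of 10, -0.75 for leading transcripts and -1.14 without centring. With pseudocounts of 0 or 1 it stayed at -0.74. Transcripts past 2-fold lower numbered 5 of 27, where 13.6% of the main set was lower. Without a minimum they numbered 6 (14.6% of all transcripts under that setting), and above a mean of 10 they numbered 2 of 24 (10.2%). For leading transcripts they numbered 2 of 8 (12.8%), and without centring 16 of 27 (26.6%). Above a mean of 10 the members were thus no longer called lower more often than all transcripts. For leading transcripts, 0 in place of 1 were past 2-fold higher (22.2% of all leading transcripts, and 20.4% of the main set). A labeled ratio of 1 or more was found in 1 in place of 9 (22.7% and 28.2%). This also made 1 in place of 9 outside the model. The main set held 27 member transcripts without a minimum and 24 above a mean of 10, and a labeled ratio of 1 or more was then found in 9 and 8, with the same counts outside the model. With 0.1 added to all 4 values the set held 29 member transcripts, of which 7 were past 2-fold lower (14.9% of all transcripts of that set). In this set 10 had a labeled ratio of 1 or more and were outside the model, and the median was -0.77. Shares over all transcripts were not computed for the labeled ratio without a minimum, above a mean of 10 or with 0.1 added. The log2 of Socs2, 0.03 relative to the median transcript, is -0.37 without centring, a shift that all transcripts share. The gene sum, added once the values were known, gave -0.15 relative to the median. Also added at that stage, a minimum of the exon value with no condition on introns gave other list medians: the median centred log2 moved from -0.75 to -0.66 for the members, from 0.36 to 0.37 for cytokines and receptors and from -0.85 to -0.59 for STAT3 targets, of which 1 in place of 0 was then higher, a gene that passed the minimum through its labeled value alone. With each exon value above 1 instead of their mean, also added at that stage, 1 in place of 3 cytokines and receptors were higher and their median was 0.28, 0 in place of 1 of the other inhibitors were lower and the median moved from -0.42 to -0.32, and that of adaptors and coactivators moved from -0.35 to -0.42.

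The median degradation half-life of the compatible leading transcripts, with Jak1 and Jak2 at their closest approach (12.9 min, and 17.4 min over the 5 with an exact solution), was 7.50 min with the fit over both variables, 9.51 min with the smaller solution, 41.3 min after subtraction of leakage, 120.6 min with the second library read as total RNA and 58.2 min from gene sums. For processing (2.69 min) it was 2.52 min with the smaller solution, 4.62 min after subtraction of leakage, 3.01 min as total RNA and 8.10 min from gene sums. The median intron to exon ratio of the genes (0.716 labeled, 0.0596 unlabeled) was 0.494 and 0.0384 for leading transcripts, and 0.982 in labeled RNA after subtraction of leakage. The median exon level of the 9 genes (34.5 labeled, 64.5 unlabeled) was 65.8 and 96.7 with every biotype. For single genes, 51 other alternative values moved by over 1.5 times, 60 by less, and 51 were equal as printed. The causes were not tested.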

Other observations

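Transcripts of the same genes that are not annotated as protein-coding were also in the table, and those named here were chosen after their values were seen. Of 26 such transcripts 11 had a higher exon value in labeled than in unlabeled RNA, beside 45.9% of 32419 such transcripts of all protein-coding genes. The 11 were 5 of 6 in Jak1, 3 of 7 in Socs2 and 3 of 10 in Stat3, with 0 of 2 in Socs3 and 0 of 1 in Il6st. The 6 of Jak1, all processed transcripts (40.6% higher over 11373 of this kind), summed to 42.3 in labeled and 32.1 in unlabeled RNA, while the full-length coding transcript had 22.4 and 64.5. The 10 of Stat3 summed to 196.4 and 394.6. The retained-intron transcript ENSMUST00000154170, counted as higher, stood at 75.5 in both libraries, beside 54.7 and 153.0 in the leading coding transcript. The single one of Il6st is annotated as a target of nonsense-mediated decay (ENSMUST00000184276), with 79.7 in labeled and 167.0 in unlabeled RNA. In Socs2 the processed transcript ENSMUST00000134918 had 127.5 and 147.7, beside 126.5 and 163.1 in the leading coding transcript. These transcripts share sequence with coding isoforms, and how reads were divided among them was not tested.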
